A study of Homo sapiens with 12 samples.

Results

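Human chromosome 5 outside the protocadherin gene clusters was followed at the level of single CCGG sites in 2 clear cell renal cell carcinoma lines, given in the labels as 786 and 769. All listed CCGG sites on chromosome 5 were taken, except those between positions 140160000 and 140900000 of hg19, which hold the protocadherin clusters and 595 listed sites. That left 43865 of the 996035 sites listed on chromosomes 1 to 22 and X, of which 13509 lay on the short arm (5p, below position 46000000) and 30356 on the long arm (5q). The split falls next to the longest stretch with no listed site, from 46374905 to 49452732, where the centromere lies. A site had to be listed in at least 1 library, and among listed sites the choice was made by position.

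Each line gave 3 DNA samples: 786 AA 1, 786 AA 2 and a 786 control, and 769 AA 1, 769 AA 2 and a 769 control. AA is ascorbic acid, per the study's design; the labels give no dose or duration, and no strain, clone or passage of the lines. HELP-tagging was run on every DNA sample in separate digests with HpaII and MspI, giving 12 libraries. The labels number the AA samples 1 and 2 without saying what separates them, so p-values measure the spread between these samples, which may be technical. Where 3 values of a line are given below, they are those of AA 1, AA 2 and control, in that sequence.

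MspI cuts CCGG whether or not its inner cytosine is methylated, so the share of MspI tags that falls on a region follows the amount of its DNA. HpaII is blocked by methylation of that cytosine, so its share over the MspI share rises where CCGG is unmethylated. Clear cell renal carcinoma commonly loses 3p and gains 5q, and 5q carries SQSTM1, an autophagy receptor (p62) proposed as a target of that gain. Ascorbic acid is a cofactor of the TET dioxygenases, which oxidise methylated cytosine and so start its removal.

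CCGG sites are the letters read here, and 5 promoters of chromosome 5 show them beside the values given further on. SLC6A19 and HBEGF were chosen because their lines did not overlap. NADK2 was chosen because all 4 AA samples lay above the control of their line, as in 14.3% of the 631 promoters placed in the genome. SDHA was chosen because its promoter, on distal 5p, had an HpaII share over MspI share above the library's genome mean in all 6 samples. It had 22 to 190 MspI tags per library. SQSTM1 was chosen for its large mean differences, but neither of these held for it. Its lines overlapped, its AA samples lay above the control only in 769, and the 769 control had 0 HpaII tags there. The sequences are RefSeq's, of build GRCh38.p14, 5′ to 3′ on the gene's strand, with every CCGG in capitals. They run from 250 bases before a start that RefSeq gives for the gene to 50 after it. A gene can have several such starts, so a window shown need not be at its main start. SLC6A19 lies at chr5:1201345-1201644 on the plus strand, SDHA at chr5:218070-218369 on the plus strand, NADK2 at chr5:36241342-36241641 on the minus strand, HBEGF at chr5:140346554-140346853 on the minus strand and SQSTM1 at chr5:179820655-179820954 on the plus strand.
SLC6A19: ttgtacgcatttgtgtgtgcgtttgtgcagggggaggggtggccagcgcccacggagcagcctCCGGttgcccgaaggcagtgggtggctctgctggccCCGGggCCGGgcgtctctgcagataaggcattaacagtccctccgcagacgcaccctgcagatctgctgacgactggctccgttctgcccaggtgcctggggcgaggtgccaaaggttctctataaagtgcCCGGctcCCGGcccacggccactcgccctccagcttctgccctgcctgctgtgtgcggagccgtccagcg
SDHA: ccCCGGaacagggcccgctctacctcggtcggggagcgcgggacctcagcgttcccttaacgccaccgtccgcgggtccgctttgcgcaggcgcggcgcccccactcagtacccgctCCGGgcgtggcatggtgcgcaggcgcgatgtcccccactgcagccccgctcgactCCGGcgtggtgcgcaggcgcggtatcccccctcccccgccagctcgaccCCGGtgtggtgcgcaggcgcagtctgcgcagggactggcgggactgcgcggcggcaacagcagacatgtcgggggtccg
NADK2: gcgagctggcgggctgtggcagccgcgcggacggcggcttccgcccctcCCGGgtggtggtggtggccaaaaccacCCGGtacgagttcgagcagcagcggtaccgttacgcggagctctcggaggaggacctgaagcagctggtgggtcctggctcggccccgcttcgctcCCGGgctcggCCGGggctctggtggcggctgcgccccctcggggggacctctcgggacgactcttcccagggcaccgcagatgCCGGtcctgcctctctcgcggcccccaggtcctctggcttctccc
HBEGF: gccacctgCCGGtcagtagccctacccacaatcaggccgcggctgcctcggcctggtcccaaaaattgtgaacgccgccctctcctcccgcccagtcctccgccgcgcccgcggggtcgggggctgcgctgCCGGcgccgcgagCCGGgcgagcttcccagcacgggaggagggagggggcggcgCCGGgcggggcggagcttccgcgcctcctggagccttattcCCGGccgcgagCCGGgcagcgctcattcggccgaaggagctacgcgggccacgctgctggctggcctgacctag
SQSTM1: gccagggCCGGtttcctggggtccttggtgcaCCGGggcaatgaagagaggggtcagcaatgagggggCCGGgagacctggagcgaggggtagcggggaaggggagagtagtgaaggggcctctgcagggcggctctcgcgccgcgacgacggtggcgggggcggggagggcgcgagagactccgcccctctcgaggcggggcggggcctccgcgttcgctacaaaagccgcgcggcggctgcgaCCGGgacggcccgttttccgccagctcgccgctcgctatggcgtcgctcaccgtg
SLC6A19 and NADK2 hold 5 CCGG each, HBEGF holds 6, and SDHA and SQSTM1 hold 4 each. CCGG reads the same on both strands, and at least 1 was found in 63.2% of the RefSeq promoter windows of the same length on chromosomes 1 to 22 and X. At least 4, the number needed to place a window, were found in 23.8% of windows in the genome and in 23.4% of the 1878 windows on chromosome 5.

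Library totals ran from 189704 to 12442031 tags, and the sites of chromosome 5 took between 4.35% and 4.79% of the tags on chromosomes 1 to 22 and X. The 786 control HpaII library was the smallest, with 7053 tags at these sites against 125767 to 449818 in the other HpaII libraries. It listed 1601 of the 43865 sites, while the 769 control HpaII library listed 4700 and the AA HpaII libraries 6112 to 12663. The 95% Wilson interval of an arm's share of tags spanned at most 0.0455 percentage points in all libraries but the 786 control HpaII library, where it spanned up to 0.154. These intervals cover counting error only, since PCR tags carried no molecular identifier.

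The 2 arms of chromosome 5 differed between the lines in opposite directions. 5p took more of the MspI tags in 786 than in 769, and 5q took less, in every sample. For 5p the MspI share was 2.10%, 1.92% and 1.95% in 786, against 1.18%, 1.29% and 1.22% in 769. The means were 1.99% ± 0.0962 in 786 and 1.23% ± 0.0526 in 769 (SD, n = 3 each), a 1.62-fold higher share in 786 (log2 0.69).

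For 5q the MspI share was 2.53%, 2.47% and 2.40% in 786, against 3.28%, 3.28% and 3.16% in 769. The means were 2.47% ± 0.0613 in 786 and 3.24% ± 0.0696 in 769 (SD, n = 3 each), a 0.762-fold share in 786. The ratio of 5q to 5p was 0.471-fold in 786 relative to 769 (log2 -1.08). Each of these 3 differences gave an exact permutation p of 0.1, two-sided, the smallest that 3 samples against 3 allow, and an adjusted p of 0.159 over the 10 tests made on arm values.

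Summed over both arms the lines could not be told apart, since chromosome 5 took 4.46% ± 0.147 of MspI tags in 786 and 4.47% ± 0.0943 in 769 (SD, n = 3 each). Non-overlap of the lines was common in these genomes: MspI shares did not overlap in 79.5% of 39 chromosome arms (the short arms of acrocentric chromosomes joined to their long arms, X left out). Among those 39 arms, 5p had the highest MspI share in 786 relative to 769, and 5q was 4th from the lowest. Set against the tags that the genome's rate per site in each class of CCGG density would give, 5p held 1.50 ± 0.0716 times as many in 786 and 0.934 ± 0.0426 times as many in 769. On the same scale 5q held 0.844 ± 0.0197 in 786 and 1.12 ± 0.0233 in 769 (SD, n = 3 each).

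In 1 Mb bins the 5p difference ran along the whole arm. edgeR's quasi-likelihood test with Benjamini-Hochberg adjustment called 38 of 46 bins of 5p higher in 786 and 0 lower, where 12.3% of 2862 bins in the genome were called higher and 13.1% lower. The 8 bins of 5p that were not called were also higher in value, with adjusted p between 0.0511 and 0.366. Their log2 differences lay between 0.27 and 1.06, and 7 of them started between 19 and 30 Mb. The lines did not overlap in 42 of the 46 bins, all higher in 786 (20.1% of bins in the genome were so). On 5q they did not overlap in 72 bins, 10 higher and 62 lower in 786 (20.2% of bins in the genome were lower).

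On 5q the same test called 56 of 132 bins lower in 786 and 3 higher. The median log2 difference was 0.82 over 5p and -0.50 over 5q, against 0.02 over all bins of the genome. For AA against control the MspI fit called 0 of 2862 bins by edgeR, and 5 of 178 bins of chromosome 5 had an unadjusted p under 0.05.

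The largest rises lay on 5p. The bin from 12000001 to 13000000 had 794, 637 and 577 MspI tags in 786, against 167, 66 and 597 in 769 (log2 1.60 ± 0.35, SE; edgeR adjusted p = 0.00301). Per library its share lay between 0.00693% and 0.0140% in 786 and between 0.00190% and 0.00522% in 769, so the lines did not overlap. The next bin, from 13000001, had 736, 978 and 914 tags in 786, against 279, 144 and 472 in 769 (log2 1.52 ± 0.21, SE; edgeR adjusted p = 0.000123). The bin from 24000001 followed with log2 1.49 ± 0.36 (SE; edgeR adjusted p = 0.00543).

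The largest falls lay on 5q. The bin from 60000001 to 61000000 had 284, 614 and 679 MspI tags in 786, against 1025, 634 and 2120 in 769 (log2 -1.30 ± 0.22, SE; edgeR adjusted p = 0.000572). As a share of tags it took 0.00500% to 0.0101% in 786 and 0.0183% to 0.0205% in 769. The bin from 161000001 had log2 -1.12 ± 0.33 (SE; edgeR adjusted p = 0.0196). The bin from 91000001, with only 31 listed sites, had log2 -1.15 ± 0.50 (SE) and was not called (edgeR adjusted p = 0.109).

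**Figure D1:**
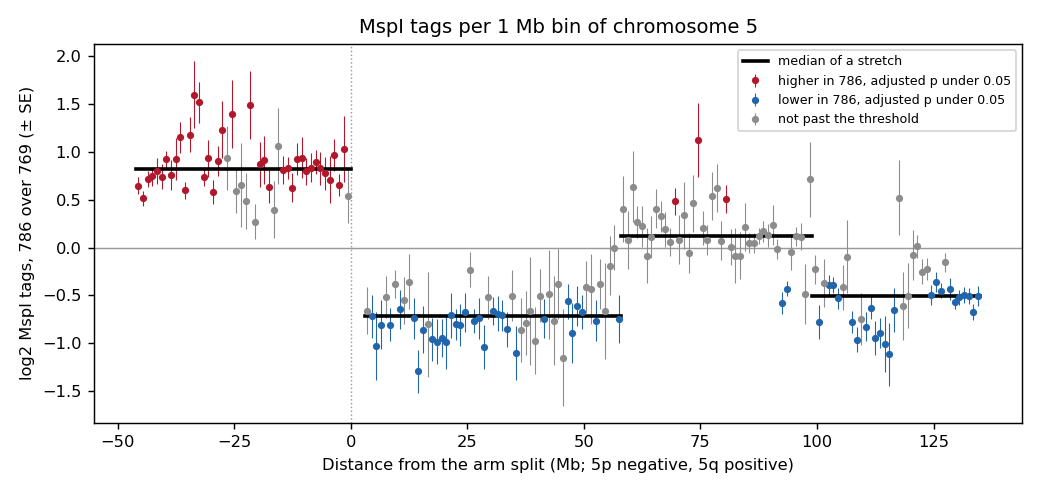
MspI tags in 1 Mb bins of chromosome 5, as the log2 difference of 786 over 769 with its SE on the vertical axis, against the distance of the bin from the arm split in Mb on the horizontal axis (5p negative). Points are bins, coloured by the edgeR call, and black bars are the medians of 4 stretches: 0.82 on 5p, then -0.72, 0.12 and -0.51 along 5q.

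Along 5q the difference was not even. A least-squares split of the bins, made from these same differences and therefore given with no test, divided 5q into 3 stretches. From 49 to 104 Mb the median log2 difference was -0.72, with 31 of 55 bins called lower and 0 higher. From 104 to 145 Mb it was 0.12, with 3 of 41 bins called higher and 2 lower. From 145 Mb to the end, at 181 Mb, it was -0.51, with 23 of 36 bins called lower and 0 higher. The 3 bins called higher in 786 on 5q all lay in the middle stretch, starting at 115, 120 and 126 Mb, with log2 differences of 0.48, 1.12 and 0.51.

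Runs of at least 5 neighbouring bins called in 1 direction were found on both arms. 2 of them were higher in 786, from 0 to 19 Mb and from 31 to 45 Mb, with median log2 differences of 0.80 and 0.83. The other 3 were lower in 786 and lay on 5q, from 63 to 71 Mb, from 156 to 163 Mb and from 174 to 181 Mb, with medians of -0.88, -0.89 and -0.51.

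The levels behind these differences were not the same in the 2 lines. Relative to the tags expected from CCGG density, with single sites capped, 786 held 1.46 to 1.60 over 5p, 0.505 to 0.558 over the stretch next to the centromere, 0.926 to 0.979 over the middle stretch and 0.972 to 0.984 over the last. In 769 the same stretches held 0.905 to 1.00, 0.831 to 0.867, 0.928 to 0.936 and 1.35 to 1.43. Thus 786 stood highest on 5p and lowest on proximal 5q, whereas 769 stood highest on distal 5q. The distal stretch, which carries SQSTM1, took 1.37%, 1.34% and 1.33% of MspI tags in 786, against 1.93%, 1.95% and 1.85% in 769. These are shares of a library and not copies per cell: more copies of a stretch and fewer of other chromosomes cannot be told apart here.

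**Figure D2:**
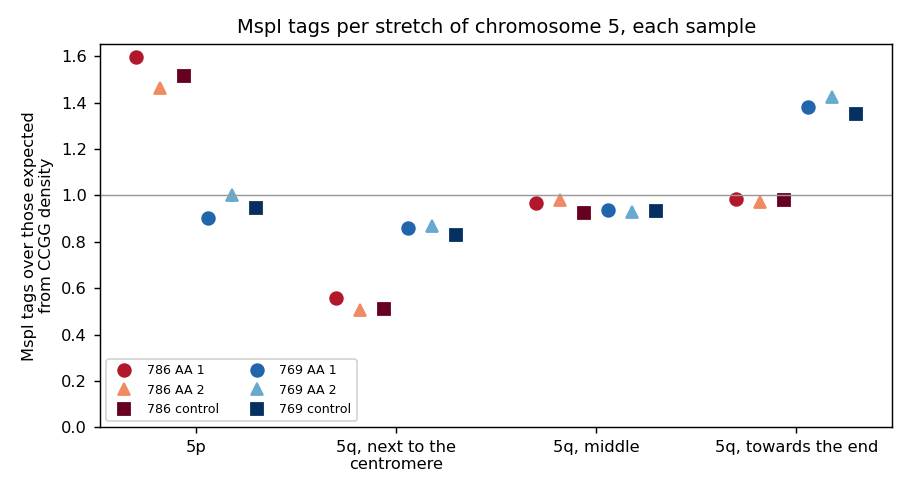
MspI tags over those expected from CCGG density (vertical axis, 1 is the genome's rate, starting at 0) in each of the 6 DNA samples, for 5p and 3 stretches of 5q (horizontal axis). The 786 samples sit at 1.46 to 1.60 on 5p and at 0.505 to 0.558 next to the centromere on 5q, and the 769 samples at 1.35 to 1.43 towards the end of 5q.

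HpaII over MspI, the measure of unmethylated CCGG with DNA amount divided out, also separated the arms. A value of 1 is the mean of the library's genome. For 5p the ratio was 0.954, 0.973 and 0.951 in 786, against 0.826, 0.771 and 0.770 in 769. The 3 samples of 786 lay above all samples of 769 (1.22-fold, exact permutation p = 0.1, the smallest possible, adjusted p = 0.159). Over 39 arms, where 38.5% had lines that did not overlap, 5p had the highest ratio in 786 relative to 769.

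For 5q the ratio was 1.06, 1.11 and 1.06 in 786, against 1.16, 1.14 and 1.18 in 769. Here 786 lay below 769 by a small amount (0.927-fold, exact permutation p = 0.1, adjusted p = 0.159). In all 6 samples 5q had the higher ratio of the 2 arms, and the gap was wider in 769. The ratio of 5q to 5p was 0.762-fold in 786 relative to 769 (log2 -0.39, exact permutation p = 0.1, adjusted p = 0.159), a value in which the library total cancels.

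The arm values of AA and control samples were close. The AA samples differed from the control of their line by a mean log2 of 0.04 on 5p (exact permutation p = 0.444 within lines, where the smallest possible is 0.11) and by -0.003 on 5q (exact p = 1). For the ratio of 5q to 5p the mean log2 was -0.04 (exact p = 0.444). The AA samples lay above the control of their line in 4 of 4 cases on 5p, in 2 of 4 on 5q and in 1 of 4 for the ratio of the arms. With 1 control per line these differences could not reach a p under 0.05.

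The most isolated CCGG sites had higher ratios in 786 than in 769, on 5p and elsewhere. Sites were classed by how many CCGG lie within 1 kb, which separates CpG-poor sequence from CpG islands, and 44.0% of 5p sites and 47.4% of 5q sites were in the class of 1 to 2. In the class of 3 to 7 on 5p, the ratio was 0.831, 0.834 and 0.715 in 786, against 0.515, 0.363 and 0.332 in 769. At sites with 1 to 2 on 5p it was 0.571, 0.592 and 0.494 in 786, against 0.366, 0.333 and 0.144 in 769. The same class had 0.452, 0.485 and 0.471 in 786, against 0.346, 0.261 and 0.163 in 769, on 5q, and 0.611, 0.502 and 0.5003 in 786, against 0.326, 0.346 and 0.159 in 769, on the other chromosomes. At these isolated sites the lines thus did not overlap on 5p, on 5q or on the other chromosomes. At the densest sites of 5p, with 16 or more, the order was the opposite, with 2.29, 2.14 and 1.77 in 786 and 2.59, 2.55 and 3.27 in 769.

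On 5q the class of 3 to 7 had 0.852, 0.872 and 0.772 in 786, against 0.797, 0.719 and 0.604 in 769, so the lines overlapped between the 786 control and 769 AA 1. On the other chromosomes the same class had 0.751, 0.712 and 0.716 in 786, against 0.620, 0.581 and 0.435 in 769. In 769 the ratio at the class of 3 to 7 was thus lower on 5p than on 5q and on the other chromosomes in each of its 3 samples. The lines overlapped at 8 to 15 on 5p. The class differences between lines were not tested apart from the arm values.

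Within both arms of 769 the AA samples had relatively more HpaII tags at isolated sites. The ratio at sites with 1 to 2 CCGG in 1 kb over that at sites with 16 or more was, over chromosome 5, 0.212, 0.218 and 0.210 in 786 and 0.127, 0.108 and 0.0418 in 769. That is 1.02-fold for AA over control in 786 and 2.80-fold in 769, with an exact permutation p of 0.11 within lines, the smallest possible (adjusted p = 0.159, higher in 4 of 4 AA samples). Whether the lines differ in this was not tested. In 769 the fold was 3.09 on 5p, 2.69 on 5q and 3.23 on the other chromosomes, and in 786 it was 0.938, 1.06 and 1.25 for the same regions.

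**Figure D3:**
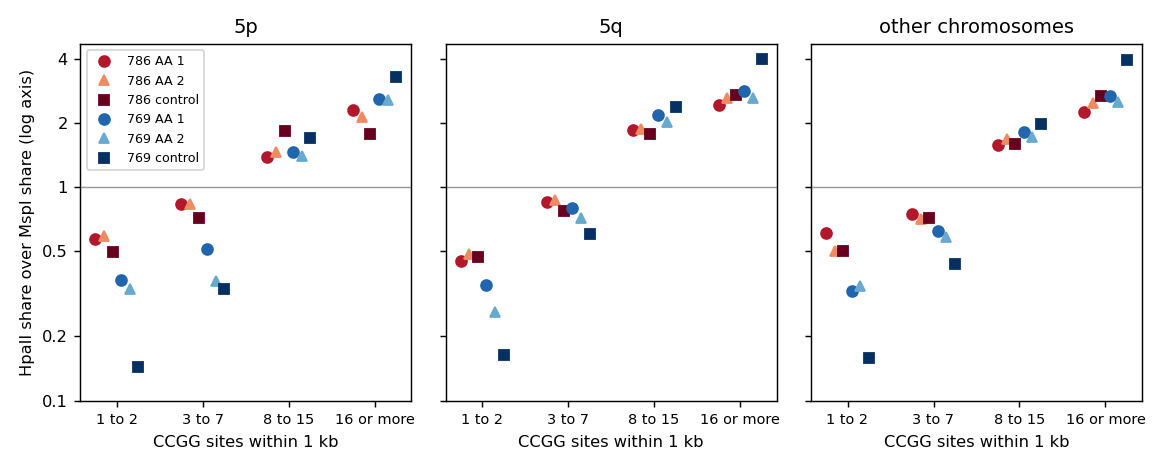
HpaII share over MspI share (vertical log axis) by the number of CCGG sites within 1 kb (horizontal axis) on 5p, 5q and the other chromosomes, with 1 point per DNA sample. On 5p the 786 samples stand at 0.715 to 0.834 in the class of 3 to 7, above the 769 samples at 0.332 to 0.515, and the 769 control is lowest in the class of 1 to 2 and highest in that of 16 or more in all 3 panels.

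In windows of 10 Mb, 1 window of 5p stood far below the rest in 769. From 20 to 30 Mb the ratio was 0.751, 0.796 and 0.567 in 786, against 0.227, 0.164 and 0.118 in 769. This window has 902 listed sites, 74.3% of them isolated and 0 in the densest class, and it is the only one of the 19 windows without a site of that class. Within it the class of 3 to 7 had 1.03, 1.02 and 0.776 in 786, against 0.0945, 0.0954 and 0.0818 in 769. Those values rest on 2275, 883 and 36 HpaII tags in 786 and on 134, 52 and 82 in 769. At its sites with 8 to 15 the lines overlapped, with 0.277, 0.384 and 0.362 in 786 and 0.431, 0.398 and 0.262 in 769.

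The first window of 5p, from 0 to 10 Mb, also separated the lines. Its ratio was 0.942, 0.926 and 0.946 in 786, against 0.744, 0.646 and 0.607 in 769. It holds 7540 of the 13509 listed sites of 5p. From 30 to 40 Mb the order was the reverse, with 1.23, 1.23 and 1.13 in 786 against 1.41, 1.44 and 1.48 in 769.

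**Figure D4:**
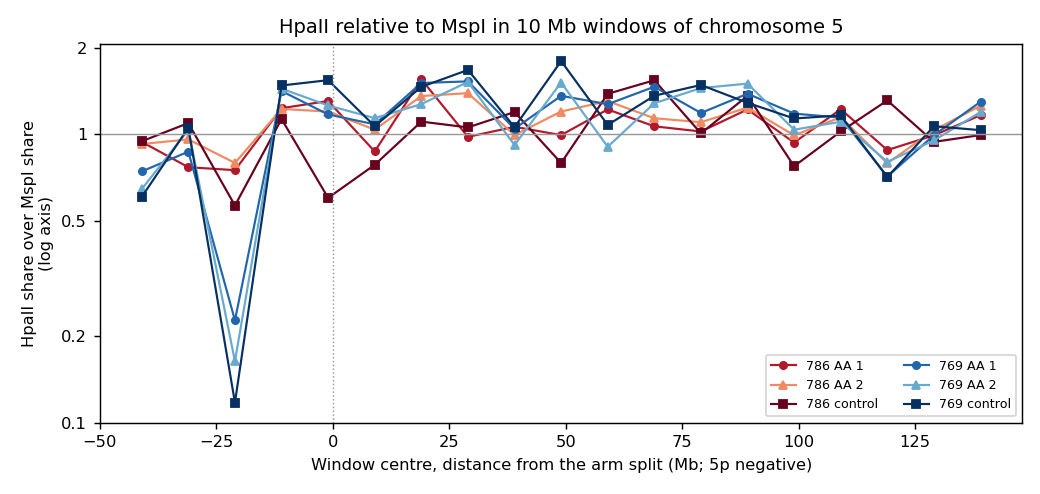
HpaII share over MspI share (vertical log axis, 1 is the library's genome mean) in windows of 10 Mb, placed by the distance of their centre from the arm split in Mb (horizontal axis, 5p negative), with 1 line per DNA sample. In the window centred at -21 the 769 samples fall to 0.118 to 0.227 while the 786 samples stay at 0.567 to 0.796.

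In bins of 100 kb, 795 bins of chromosome 5 had enough tags to be tested, 217 on 5p and 578 on 5q. Between the lines edgeR's quasi-likelihood test on HpaII relative to MspI called 6 of them, all higher in 786, where 0.819% of 15624 bins in the genome were called higher and 0.128% lower. 4 of the 6 lay on 5p. The median log2 difference over tested bins was 0.74 on 5p, -0.04 on 5q and 0.08 on the other chromosomes. For 0 bins called lower, DESeq2 called 5, and 109 bins of chromosome 5 had an unadjusted p under 0.05 in edgeR in either direction.

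The bin from 38400001 to 38500000 had 1095, 253 and 29 HpaII tags in 786, against 3, 1 and 0 in 769, with 370, 450 and 643 MspI tags in 786 and 180, 95 and 327 in 769 (edgeR adjusted p = 0.00555). The bin from 26400001 to 26500000 had 1144, 329 and 10 HpaII tags in 786 and 0 in the 3 samples of 769, with the same adjusted p by edgeR. It holds 15 listed sites, and its tags in 786 came from 5, 9 and 1 of them. The site with the most held 41.9%, 41.3% and 100% of them. In the bin from 38400001 the tags in 786 came from 12, 12 and 6 of 42 listed sites. Both bins were thus read by HpaII at some sites in 786 and nearly or wholly unread in 769. They passed the filter of 10 HpaII tags through the 786 libraries alone.

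Near the end of 5q, 2 neighbouring bins were called. From 177800001 to 177900000 there were 187, 156 and 0 HpaII tags in 786, against 16, 0 and 0 in 769 (edgeR adjusted p = 0.0196). From 177900001 to 178000000 there were 387, 188 and 14 in 786, against 25, 13 and 1 in 769 (edgeR adjusted p = 0.0214). The 2 bins hold 107 and 92 listed sites, and the tags in 786 AA 1 were spread over 12 and 15 of them.

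On distal 5p the bin from 2200001 to 2300000 had ratios of 1.23, 1.41 and 1.61 in 786, against 0.314, 0.348 and 0.0962 in 769 (log2 2.54 ± 0.50, SE; edgeR adjusted p = 0.0277). Its HpaII tags in 786 AA 1 came from 43 of 96 listed sites, with 16.3% at the site with the most. Of the bins lower in value in 786, that from 127800001 came nearest to the threshold, with ratios of 0.283, 0.663 and 0 in 786, against 2.55, 3.05 and 4.43 in 769 (edgeR adjusted p = 0.0518). Without 769 AA 2 none of the named line differences was past the threshold, and the edgeR adjusted p was 0.0633 for the 2 bins at 26.4 and 38.4 Mb and 0.126 for the bins at 2.2, 177.8 and 177.9 Mb. Without 769 AA 1 it was 0.0631 for the bin at 177.9 Mb and 0.0651 for that at 2.2 Mb, which was also not past the threshold when libraries were thinned to the smallest (0.108).

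For AA against control over both lines, edgeR called 3 of the 795 bins higher and 1 lower, where 0.294% of 15624 bins in the genome were called higher and 0.0128% lower. The fit moved the median bin upward by a log2 of 0.82 on 5p, 0.53 on 5q and 0.59 on the other chromosomes, so a bin's change is best read against that. The bin from 78900001 to 79000000 had 135 and 124 HpaII tags in 786 AA 1 and AA 2 and 0 in the 786 control, and 427 and 269 in 769 AA 1 and AA 2 and 1 in the 769 control (edgeR adjusted p = 0.0494). The bin from 150200001 had 546 and 175 tags in 786 AA 1 and AA 2 and 1 in the 786 control, and 642 and 246 in 769 AA 1 and AA 2 and 0 in the 769 control (edgeR adjusted p = 0.0465). The bin from 134500001 had 442 and 130 in 786 AA 1 and AA 2 and 0 in the 786 control, and 372 and 129 in 769 AA 1 and AA 2 and 2 in the 769 control (edgeR adjusted p = 0.0465).

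In both controls these 3 bins had at most 2 HpaII tags, beside 62, 208 and 421 MspI tags in the 786 control and 363, 788 and 311 in the 769 control. Each such control was then set at 3 HpaII tags, a limit for a count of 0 but not for 1 or 2. For the bins in the sequence above, the control count was 0, 1 and 0 in 786 and 1, 0 and 2 in 769. With 3 tags the ratio of HpaII to MspI with AA was 0.898, 2.81 and 2.43 times that of the control in 786. In 769 it was 269, 321 and 96 times that of the control. The 769 control HpaII library had 236188 tags at 4700 sites of chromosome 5, against 297917 at 12109 in 769 AA 1. A limit of 3 tags covers counting error only, and these tags carried no molecular identifier. The 786 tags thus do not show a rise in the bin from 78900001.

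Few of the sites in these bins carried the tags. In 769 AA 1 and AA 2, 78.9% to 80.8% of the HpaII tags of the bin from 150200001 were at 1 site, and 75.1% to 89.1% in 786 AA 1 and AA 2. The bin called lower with AA, from 14600001, had 96.7% of its 209 HpaII tags in the 786 control at 1 site, while the other 5 libraries had at most 34.2% at 1 site. Without 769 AA 1 or without 769 AA 2 none of the 4 bins was past the threshold (edgeR adjusted p between 0.154 and 0.245). Thinned to the depth of the smallest library, the 3 bins higher with AA were not past it (edgeR adjusted p = 0.0904 to 0.228).

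Within 769 alone edgeR called 26 bins of chromosome 5, all higher with AA, 12 of 217 on 5p and 14 of 578 on 5q, where 3.58% of bins in the genome were called higher. DESeq2 called 89 higher and 20 lower. This fit moved the median bin upward by a log2 of 0.74 on 5p, 0.36 on 5q and 0.43 on the other chromosomes. In 13 of the 26 the 769 control had 0 HpaII tags. That library listed 4700 sites of chromosome 5, against 12109 in 769 AA 1 and 6112 in 769 AA 2. The median HpaII count over the 26 bins was 234 and 79.5 in 769 AA 1 and AA 2 and 0.5 in the 769 control. Besides the bin from 150200001, the named bins were those from 169700001, 126400001, 102500001 and 37300001. They had 379, 164, 161 and 117 HpaII tags in 769 AA 1, 130, 194, 54 and 44 in 769 AA 2, and 0 in the 769 control in each, with 460, 257, 200 and 205 MspI tags in that control. Their edgeR adjusted p values were 0.0037, 0.0171, 0.0202 and 0.0458. Thinned to the smallest library these 4 bins were not past the threshold (edgeR adjusted p = 0.146 to 0.485), nor was that from 37300001 without 786 AA 1 or 786 AA 2 (0.0715 and 0.0602).

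Within 786 edgeR called 1 bin, the one from 14600001, which was lower with AA (edgeR adjusted p = 0.00601), where 0.262% of bins in the genome were called lower. The bin with the smallest p among those higher in value, from 133400001, had 543 and 295 HpaII tags in 786 AA 1 and AA 2 and 0 in the 786 control beside 1262 MspI tags there (edgeR adjusted p = 0.0806). The 786 control had a median of 5 HpaII tags over the 26 bins called in 769, so few calls in 786 do not show a lack of change. The AA effect in 786 minus that in 769 was tested in the same fit and called 10 bins, 6 on 5p and 4 on 5q, all lower, where 0.819% of bins in the genome were called lower. DESeq2 called 33 lower and 14 higher.

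Genes were reached by the spacing of CCGG in their promoters. Of the 440 RefSeq windows of chromosome 5 with at least 4 CCGG, 192 matched a single run of consecutive sites on that chromosome, and over the genome 99.8% of 3946 windows so placed fell on the chromosome RefSeq gives. After joining windows that share sites and leaving out 2 windows in the protocadherin locus, 159 promoters remained, of which 35 had at least 20 MspI tags in every MspI library. For these the HpaII to MspI ratio was turned into an angle from 0 (no HpaII tag) to 100, where 50 is the library's genome mean. The values are a description with no test.

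Of the 35 promoters 2 were higher in 786 with no overlap between lines and 2 were lower, where 4.28% and 9.35% of the 631 promoters placed in the whole genome were so. SLC6A19, the neutral amino acid transporter of the kidney tubule and intestine, had angles of 92.0, 72.2 and 94.1 in 786, against 17.2, 33.7 and 36.4 in 769. Its 5 sites, between positions 1201525 and 1201699 of hg19, had 429, 93 and 6 HpaII tags in 786 and 10, 13 and 27 in 769. The other promoter higher in 786 was that of LOC105379154, with 94.1, 81.9 and 90.7 in 786, against 66.4, 64.5 and 62.1 in 769.

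HBEGF, a ligand of the epidermal growth factor receptor, was the clearest on the other side. Its 6 sites, from 139726200 to 139726429 of hg19, had angles of 46.0, 41.2 and 38.6 in 786, against 79.0, 90.3 and 88.9 in 769. The 786 control value rests on 1 HpaII tag, and the AA samples of 786 had 91 and 84. The promoter shared by SDHA, the flavoprotein subunit of succinate dehydrogenase, and CCDC127 was high in all samples, with 79.1, 84.1 and 74.2 in 786 and 84.3, 90.5 and 88.1 in 769. It was the other promoter lower in 786 with no overlap, but narrowly, and it had 22 MspI tags in 769 AA 2.

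Some promoters had no HpaII tag in a whole line or control. That of LOC105374746 had 193 and 65 HpaII tags in 786 AA 1 and AA 2 and 0 in the 786 control, and 0 in the 3 samples of 769 beside 26 to 34.5 MspI tags. The promoter of SV2C, a synaptic vesicle protein, had 77, 39 and 0 HpaII tags in 786, against 235, 76 and 187 in 769. The promoters had 0 to 18 HpaII tags in the 786 control, so its angles rest on few tags.

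Between AA and control, 3 of the 35 promoters were above their control in all 4 AA samples and 2 were below in all 4, where 14.3% and 13.5% of the 631 promoters were so. NADK2, the mitochondrial NAD kinase, had 82.4 and 79.3 in 786 AA 1 and AA 2 and 73.5 in the 786 control, and 80.5 and 55.5 in 769 AA 1 and AA 2 and 22.3 in the 769 control. In 769 its sites had 161 and 42 HpaII tags with AA and 22 in the control, beside 41, 46 and 136 MspI tags. In 786 they had 340 and 136 HpaII tags with AA and only 5 in the control, beside 57, 76 and 115 MspI tags. NNT-AS1, antisense to the gene of the mitochondrial transhydrogenase NNT, and MARCHF11, a membrane-bound ubiquitin ligase, were the others above. Both had 0 HpaII tags in the 786 control, beside 58 and 80 MspI tags, so any HpaII tag placed an AA sample of 786 above it. Of the 35 promoters 15 had no HpaII tag in that control. The 2 below were SLC6A19 and UIMC1, a partner of BRCA1 in DNA repair. MARCHF11 had angles of 8.2 and 37.9 in 786 AA 1 and AA 2 and 0 in the 786 control, and of 17.6 and 47.8 in 769 AA 1 and AA 2 and 0 in the 769 control.

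SQSTM1 had its lowest value in the 769 control, at 0. Its 4 sites, between 179247664 and 179247902 of hg19, had angles of 58.2 and 75.3 in 786 AA 1 and AA 2 and 80.2 in the 786 control, and 81.8 and 48.5 in 769 AA 1 and AA 2 and 0 in the 769 control. The 769 control had 0 HpaII tags beside 224 MspI tags, whereas 769 AA 1 and AA 2 had 360 and 41 HpaII tags beside 85 and 56 MspI tags. Of 30 genes of chromosome 5 listed for their roles in cancer and kidney biology, SQSTM1, SDHA, CTNNA1, NR3C1 and FBN2 had a promoter that could be placed. CTNNA1, the gene of alpha-catenin, was high at its first promoter, with 60.2, 77.5 and 88.8 in 786 and 84.8, 83.3 and 82.4 in 769. NR3C1, the glucocorticoid receptor, had 2 placed promoters with angles from 44.8 to 94.5 wherever an HpaII tag was read, and 0 in the 786 control at the first. Neither is among the 35 promoters, since the first had 17 MspI tags in 786 AA 2 and the second 18 in the 786 control. FBN2, the gene of fibrillin-2, had 6 to 53 MspI tags per library and is not read further.

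**Figure D5:**
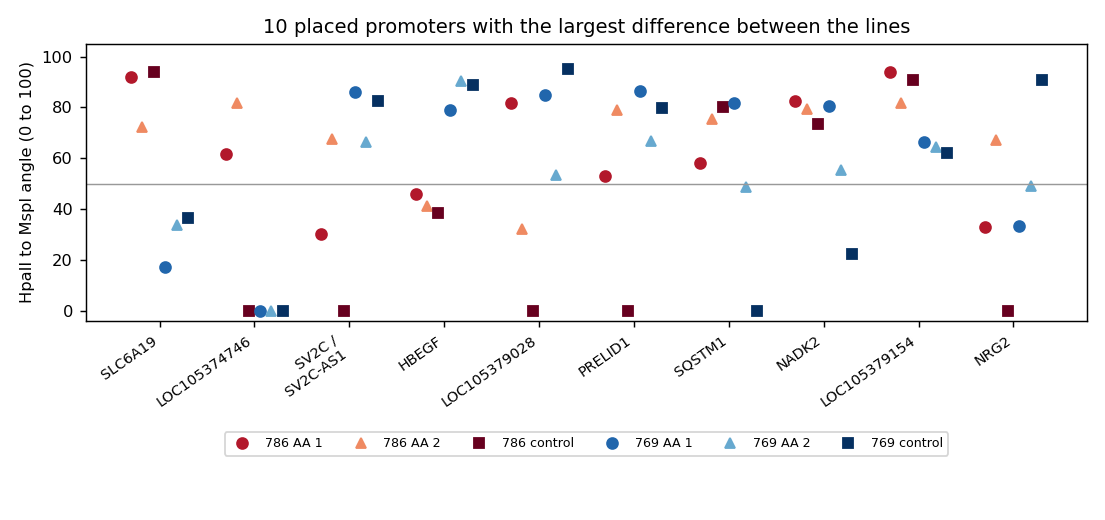
HpaII to MspI angle (vertical axis, 0 is no HpaII tag and 50 the library's genome mean) in each of the 6 DNA samples for the 10 placed promoters with the largest difference between the lines (horizontal axis). SLC6A19 lies at 72.2 to 94.1 in 786 and 17.2 to 36.4 in 769, HBEGF at 38.6 to 46.0 in 786 and 79.0 to 90.3 in 769, and 5 promoters have 0 in the 786 control.

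The sites next to the left-out locus were read apart. The 100 kb before it had ratios of 1.94, 0.989 and 1.44 in 786, against 2.29, 7.38 and 2.34 in 769. The 100 kb after it had 0.218, 0.739 and 0 in 786, against 0.734, 0.462 and 0.859 in 769. They hold 27 and 26 listed sites. Between the arm split and the centromeric gap lie 9 listed sites with 0 to 76 MspI tags per library, so placing them on 5q moved no arm value.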

How the data were processed

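Genomic DNA of the 786 and 769 lines was digested with HpaII or MspI, and a short tag beside each cut was amplified in 18 PCR cycles, per the labels' protocols. Values deposited by the authors are expected counts of tags per CCGG site (left, right and summed), with no sign of normalization in the files; 8.23% to 11.5% of sites had counts that were not whole (tolerance 1e-06). The build is hg19 (per the submitters' processing notes), and no aligner was named in the sources used here.

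The sums were added up per arm, density class and bin, rounded for count tests, and divided by the tags on chromosomes 1 to 22 and X. The authors' totals of 189704 to 12442031 tags per library are the depth. edgeR 4.0.16 (R 4.3.3) fitted all bins of the genome with TMM factors within each enzyme: MspI per 1 Mb, where all MspI libraries had 20 tags or more, on line and treatment; and HpaII relative to MspI per 100 kb, where all MspI libraries had 10 tags or more and the HpaII libraries 10 in sum, on DNA sample, enzyme and the enzyme by line and enzyme by treatment terms. Calls were made below 0.05 after Benjamini-Hochberg adjustment over all bins. Each line has a single control, whose spread was taken to equal that of the AA samples by pooling both lines. Arm values were tested by exact permutation of line labels, or of treatment labels within lines (9 arrangements). On simulated data the MspI fit recovered 67.5% of 200 bins changed 1.62-fold among 2862 (5 of 140 calls were false), and the HpaII fit 75.4% of 199 bins changed 8-fold between lines among 13666 (6 of 156 calls were false). The changed HpaII bins were drawn only from those above the median HpaII share. Noise was simulated per bin, with no piling of tags at single sites, so these rates do not hold for sparse bins.

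Bins were named by size among called bins, up to 5 a direction, and otherwise by smallest p, up to 3. Promoter windows of RefSeq (GRCh38.p14) were placed among the hg19 sites by exact match of the spacings of at least 4 consecutive CCGG, with no conversion of coordinates; those named are 30 listed genes and the 10 largest differences between lines and between AA and control. The arms, lists and rules were chosen with earlier results of these data known. Alternatives were library totals, DESeq2 1.42.0, other low count filters, other bin sizes, thinning to the smallest library, sites capped at the 99.9 percentile or counted as present, the locus kept in, density standardization, a replicate block, and leaving out each DNA sample. Sums and plots used Python 3.11.15.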

Additional observations from a re-analysis of the deposited data

Results flagged for a closer look

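By edgeR's test of the 786 effect minus the 769 effect, 5 named bins of chromosome 5 were called. The bins and their adjusted p by edgeR are those from 3000001 (0.0198), 6800001 (0.0198), 169700001 (0.0213), 4100001 (0.0285) and 169800001 (0.0356). In each of them the 769 control had 0 HpaII tags beside 236 to 628 MspI tags, so a fitted fold change is no bound and none is given. That HpaII library listed 4700 sites of chromosome 5, against 12109 in 769 AA 1. Whether these calls come from sites missed in that 1 library was not tested.

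On distal 5p the bin from 3000001 had 848 and 364 HpaII tags in 786 AA 1 and AA 2 and 23 in the 786 control, and 79 and 59 in 769 AA 1 and AA 2. The ratios of HpaII to MspI were 0.892 and 1.04 with AA and 2.02 in the control for 786, and 0.333 and 0.668 with AA for 769. The bin from 6800001 had ratios of 1.78 and 1.30 with AA and 1.78 in the control for 786, and 0.394 and 0.401 with AA for 769. The bin from 4100001 had 1.45 and 1.12 with AA and 3.95 in the control for 786, and 0.517 and 1.12 with AA for 769. At the bins from 3000001, 6800001 and 4100001, 60.9%, 31.0% and 68.2% of the HpaII tags of the 786 control were at 1 site. In 769 AA 1 the shares at 1 site were 91.1%, 82.8% and 73.3%, and in 769 AA 2 they were 94.9%, 78.3% and 100%, so the tags of 769 came mostly from 1 site per bin and library.

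The bins from 169700001 and 169800001 adjoin each other on 5q. The first had ratios of 1.86 and 1.46 with AA and 2.98 in the control for 786, and 1.41 and 2.35 with AA for 769. The other had 0.508 and 0.441 with AA and 3.08 in the control for 786, and 0.946 and 0.451 with AA for 769. The 786 control values rest on 13 to 29 HpaII tags over the 5 bins. With libraries thinned to the smallest, the edgeR adjusted p was 0.0924 to 0.265 over the 5 bins, and that of the bin from 169800001 was 0.0523 without 769 AA 1.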

How the results depend on the processing

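Arm results of MspI and the line differences of HpaII over MspI kept their direction under every alternative run, with 786 over 769 between 0.37 and 0.73 (log2) for the MspI share of 5p and between -0.41 and -0.21 for that of 5q; the smallest values came from counting sites with a tag in place of tags. The AA differences of the arms lay near 0 and turned sign: to -0.0712 on 5p and 0.0846 for 5q over 5p with sites counted, on 5q to 0.0133 with sites counted, 0.00839 with capped sites and 0.0010 with thinning, and between -0.0203 and 0.0143 on leaving out an AA sample.

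Calls on chromosome 5 in MspI bins numbered 97, and 65 to 90 without 1 DNA sample. Calls in HpaII bins moved more. They are given in the sequence AA over both lines, 786 against 769, AA in 769, AA in 786 and the difference of the AA effects, and were 4, 6, 26, 1 and 10. DESeq2 gave 28, 79, 109, 7 and 47, and no low count filter gave 12, 32, 46, 23 and 34. A minimum of 10 HpaII tags in every library gave 0, 3, 5, 1 and 2, with 15 bins at an unadjusted p under 0.05 for the first; thinning gave 1, 8, 1, 10 and 7; bins of 1 Mb gave 0, 3, 12, 3 and 6, with 26 unadjusted for the first. Leaving out a DNA sample gave 0 to 8 (AA samples only), 0 to 16, 25 to 47, 1 to 8 and 6 to 24. The counts of 0 came without 769 AA 2 for the first and second (102 and 93 unadjusted) and without 769 AA 1 for the first (71 unadjusted). The AA term over both lines without a control rests on the other line alone, and called 25 bins, all higher, without the 786 control and 1, lower, without the 769 control.

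Same-numbered AA samples of the lines did not deviate together (r = 0.0018 for HpaII and -0.0265 for MspI across bins). Such a correlation cannot show whether they shared a batch or treatment, and the labels do not say. With the replicate block the calls were 7, 22, 53, 24 and 32, and 99 in MspI bins. The cause of these moves was not tested. The depth of the 786 control HpaII library limits every AA comparison in 786.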

Other observations

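Among the 35 promoters with enough MspI tags, several had AA differences that rest on a control with no HpaII tag. ANXA6, a calcium-dependent membrane-binding annexin, had angles of 90.5 and 86.8 in 786 AA 1 and AA 2 and 0 in the 786 control, and 77.4 and 27.0 in 769 AA 1 and AA 2 and 34.1 in the 769 control. GFPT2, an enzyme of hexosamine synthesis, had 85.2 and 90.6 in 786 AA 1 and AA 2 and 0 in the 786 control, and 76.8 and 38.7 in 769 AA 1 and AA 2 and 65.7 in the 769 control. ZNF454, a zinc finger gene of distal 5q, had 0 and 31.8 in 786 AA 1 and AA 2 and 0 in the 786 control, and 55.1 and 16.2 in 769 AA 1 and AA 2 and 0 in the 769 control. In the 769 control it had 0 HpaII tags beside 177 MspI tags.

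The promoter of IRX4, a homeobox gene of distal 5p, was below the genome mean of 50 in both lines, with angles of 9.3, 0.8 and 0 in 786 AA 1, AA 2 and control and 26.3, 5.3 and 23.0 in 769 AA 1, AA 2 and control. That of AHRR, the repressor of the aryl hydrocarbon receptor, had 50.4, 18.2 and 0 in 786 AA 1, AA 2 and control and 26.1, 0 and 0 in 769 AA 1, AA 2 and control. Both were chosen after their values were seen.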
